A study of Mus musculus with 3 samples.

Results

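The genes described here are 57 mouse genes of lipid synthesis, binding and storage, chosen by a list of gene names from the pathway. All 57 were found among the 24346 gene symbols of the deposited tables, and they fall into 18 genes of fatty acid synthesis and desaturation, 5 of fatty acid activation, 13 of glyceride synthesis, 8 of fatty acid binding, 8 of lipid droplets and 5 lipases. The study is an RNA-seq profile of the distal colon of WT mice, given the strain name JAX, aged 8 weeks and labelled as steady-state. The tissue was rinsed, flash-frozen, extracted whole and sequenced from polyadenylated RNA, so epithelium, muscle, vessels, nerves, fat and immune cells may all contribute. The labels give 3 replicates of this 1 group and no contrast, and they do not say whether the replicates are separate animals. The sources used here do not say whether animals were pooled.

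Levels are given in FPKM, mapped fragments scaled to transcript length and to library depth, summed over the listed isoforms of a gene. The deposited confidence bounds gave 3.78e+06, 3.79e+06 and 1.24e+06 mapped fragments for replicates 1, 2 and 3, so replicate 3 rests on the fewest reads. Over 8771 single-isoform genes, 7 (0.0798%) differed between the 3 files beyond counting noise in a chi-square test with Benjamini-Hochberg adjustment at 0.05, and 438 (4.99%) had an unadjusted p under 0.05. The names of the deposited files carry the same index and lane and differ in a running number. The median ratio of the variance between files to the sampling variance was 0.678, against 0.699 in data simulated with no change. Since their spread was close to what sampling alone gives, apart from those 7 genes, the files were counted as 1 sample, and each mean ± SD below is the spread of the 3 files, which may be technical. The 95% counting intervals pool the fragments of all 3 files and cover counting error only. All 5 colonocyte markers lay above 100 FPKM, from Aqp8 at 184 to Car4 at 817 FPKM, and all 6 epithelial markers did too.

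Cells make fatty acids from cytosolic citrate: ATP citrate lyase splits citrate to acetyl-CoA, acetyl-CoA carboxylase makes malonyl-CoA, and fatty acid synthase joins these units into palmitate, which elongases lengthen and desaturases give double bonds. Long-chain acyl-CoA synthetases activate free fatty acids, and a chain of acyltransferases and phosphatases joins the acyl-CoAs to glycerol, ending in phospholipid or triglyceride. Small binding proteins carry fatty acids through the cytosol, perilipins and CIDE proteins coat and fuse lipid droplets, and lipases release the fatty acids again. In the small intestine the same chemistry serves the absorption of dietary fat into chylomicrons, and in adipose tissue it serves storage, each with its own paralogues, while colonocytes take up mainly short-chain fatty acids made by bacteria.

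Of the 57 genes, 41 (71.9%) reached 1 FPKM in every file, against 48.5% of all gene symbols, and their median level was 7.09 FPKM against 1.25 FPKM for all symbols. Another 14 lay under 1 FPKM in every file, among them Mogat1 and Plin5, which were listed at 0 in all 3, and Acacb and Mttp crossed that level between files. The whole set summed to 1297 ± 16.4 FPKM, 0.303% of the summed FPKM, and 22 genes had a mean of 10 FPKM or more. Only Scd2 and Fads2 exceeded 100 FPKM, and both are desaturases. By role, the share at or above 1 FPKM in every file was 12 of 18 for synthesis and desaturation, 4 of 5 for activation, 9 of 13 for glyceride synthesis, 8 of 8 for binding, 4 of 8 for droplets and 4 of 5 for lipases. Median levels were highest for the binding proteins at 17.4 FPKM and lowest for the droplet genes at 1.63 FPKM.

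**Figure D1:**
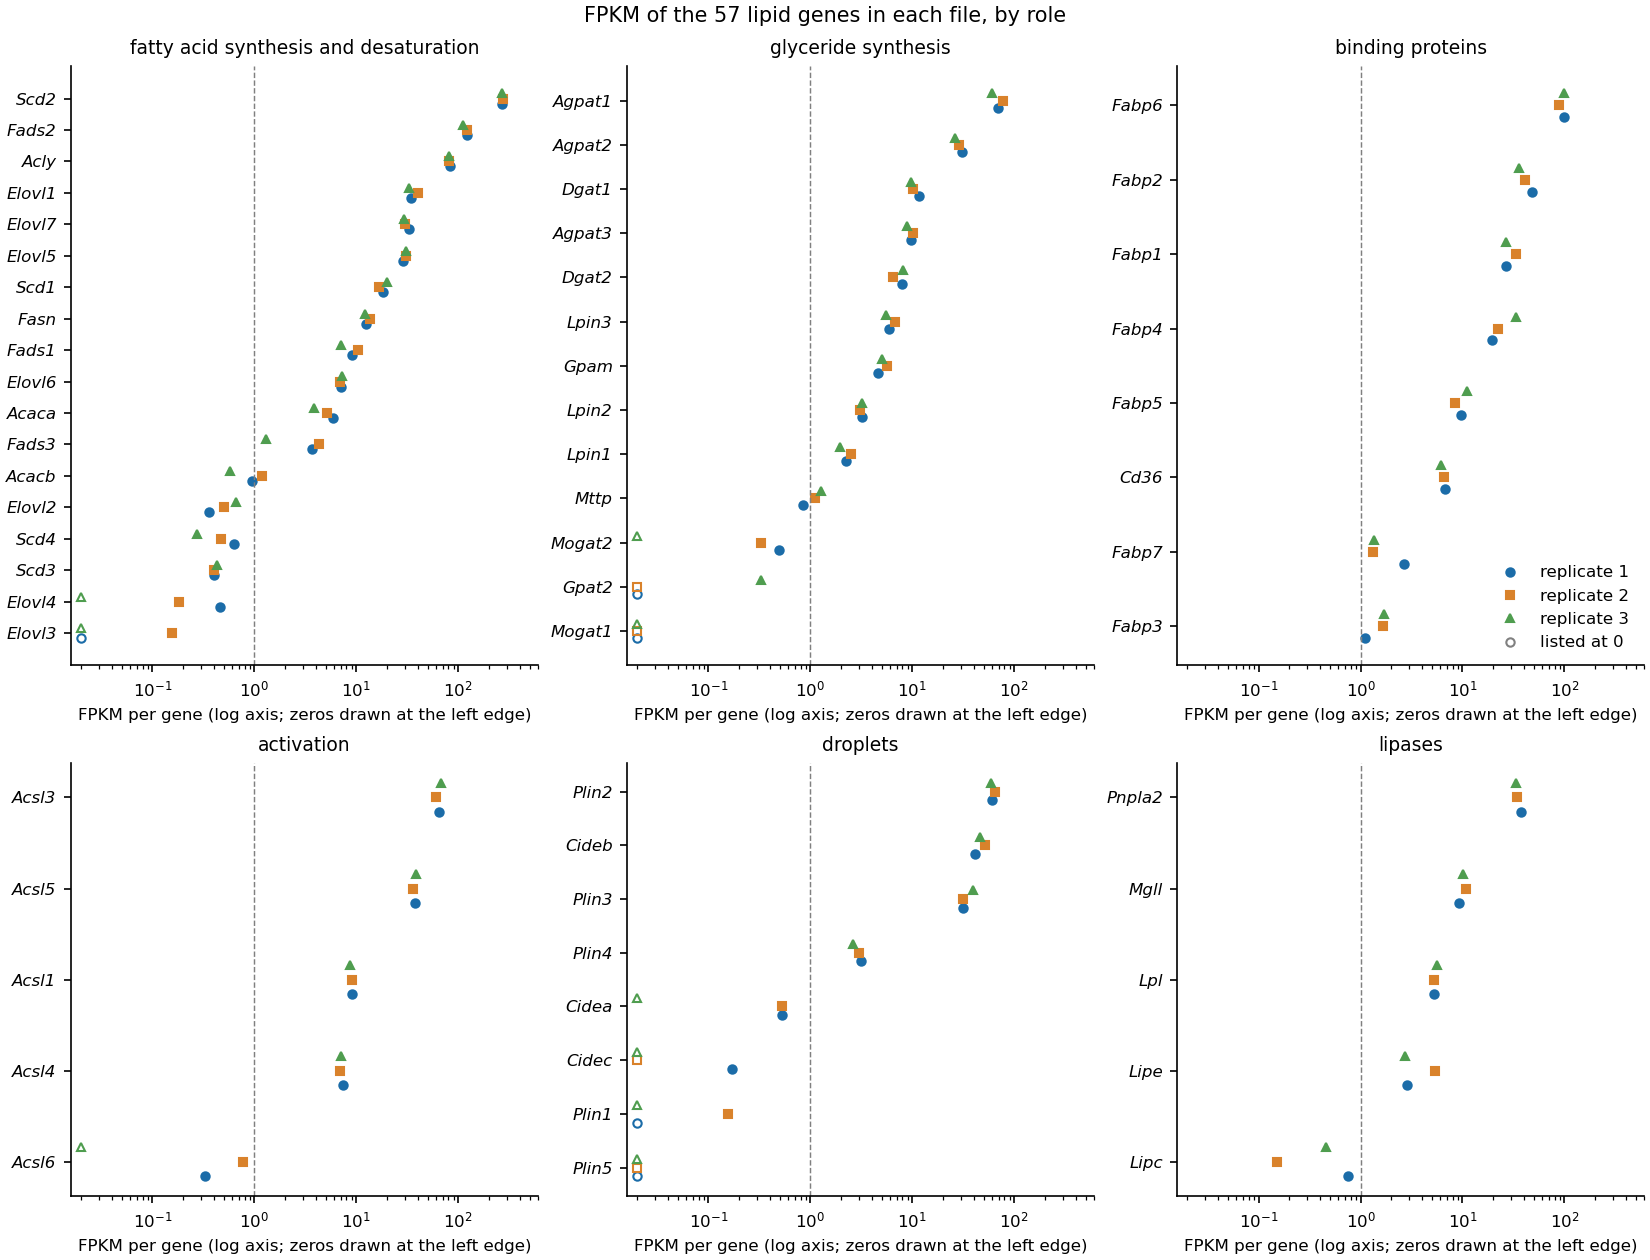
FPKM of each of the 57 genes (log axis) in the 3 files (points), 1 panel per role, with a dashed line at 1 FPKM and zeros drawn at the left edge. Scd2 stands furthest right at 271 FPKM. The points of Scd2 nearly coincide, while those of Fads3, from 1.29 to 4.25 FPKM, lie well apart.

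Acly, which encodes ATP citrate lyase, read 83.8, 81.1 and 81.8 FPKM in replicates 1, 2 and 3 and was the highest gene of the synthetic core. Fasn, the fatty acid synthase gene, read 12.5, 13.8 and 12.1 FPKM. Acaca, the cytosolic acetyl-CoA carboxylase gene, read 5.90, 5.15 and 3.81 FPKM. The order Acly, Fasn, Acaca held in every file, and Acly was 5.90 to 6.77 times Fasn. Acacb, whose product sits at the outer mitochondrial membrane and makes the malonyl-CoA that restrains fatty acid import, was lower still at 0.953, 1.17 and 0.580 FPKM. Acaca exceeded Acacb 4.39 to 6.57 times, but 49.1% of the 50-base words of Acaca transcripts also occur in the processed pseudogene Gm5182, so the level of Acaca is uncertain. Its unadjusted p for a difference between the files was 0.0281 and its adjusted p by the chi-square test was 0.871.

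The stearoyl-CoA desaturases, which put the first double bond into palmitate and stearate, were dominated by a single paralogue. Scd2 (chr19:44293676-44306862, GRCm38) read 270.3, 273 and 269 FPKM, with a counting interval of 267 to 276, and ranked 241 among all symbols. Scd1 (chr19:44394450-44407709), the main form of liver and adipose tissue, read 18.1, 16.6 and 19.8 FPKM. Scd4 (chr19:44333326-44346743), known from heart, read 0.636, 0.469 and 0.276 FPKM. Scd3 (chr19:44203288-44244016), known from skin and Harderian gland, read 0.400, 0.400 and 0.426 FPKM. Scd2 was 13.6 to 16.5 times Scd1 in the 3 files, and Scd1 was in turn above Scd3 and Scd4, whose counting intervals overlapped. Scd2 alone made up 20.8% of the summed level of the 57 genes in replicate 1.

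All 4 Scd genes lie side by side on chromosome 19 and are close copies, so the sequences bear on how well their reads can be assigned. In alignments of GENCODE coding sequences, Scd1 matched Scd2 at 962 of 1065 aligned bases (90.3%), Scd3 at 88.3% and Scd4 at 83.9%. The longest run identical to Scd2 was 147 bases in Scd1, 125 in Scd3 and 98 in Scd4. The following 60 coding bases of each gene (bases 451 to 510 of Scd2, counted from the A of the start codon) hold the fewest differences. Capitals mark a base that differs from Scd2, and Scd1 and Scd4 have none.
Scd2: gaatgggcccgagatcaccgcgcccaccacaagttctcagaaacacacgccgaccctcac
Scd1: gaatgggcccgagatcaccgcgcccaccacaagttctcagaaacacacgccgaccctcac
Scd3: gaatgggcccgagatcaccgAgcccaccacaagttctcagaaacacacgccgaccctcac
Scd4: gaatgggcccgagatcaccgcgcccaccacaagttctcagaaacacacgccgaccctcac

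A read that falls wholly within this window matches Scd1, Scd2 and Scd4 equally well. The window with the most differences (bases 114 to 173 of Scd2, at chr19:44294993-44295052 on the + strand of GRCm38) separates them, with 17 differing bases in Scd1, 16 in Scd3 and 13 in Scd4, again in capitals.
Scd2: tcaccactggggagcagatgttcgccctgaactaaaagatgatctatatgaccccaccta
Scd1: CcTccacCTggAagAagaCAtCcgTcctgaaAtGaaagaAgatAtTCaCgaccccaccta
Scd3: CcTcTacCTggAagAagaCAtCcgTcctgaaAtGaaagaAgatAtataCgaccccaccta
Scd4: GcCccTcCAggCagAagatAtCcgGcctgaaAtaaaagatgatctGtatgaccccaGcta

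Over whole transcripts, 4.01% of the 50-base words of Scd2 and 4.61% of those of Scd1 also occur in another gene. Scd2 rests on about 12640 fragments and Scd1 on about 728. Even a small part of the Scd2 reads, if assigned to Scd1, would therefore change the level of Scd1 and its ratio to Scd2. The shares were 6.57% for Scd3 and 6.32% for Scd4. The part of shared reads in the levels of Scd1, Scd3 and Scd4 was not tested. The sources used here do not say how multiply matching reads were treated.

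The polyunsaturated fatty acid desaturases showed the same kind of uneven order. Fads2 (chr19:10064164-10101503), the delta-6 desaturase that opens the route from linoleic and alpha-linolenic acid to longer polyunsaturated fatty acids, read 121, 121 and 112 FPKM. Fads1 (chr19:10182888-10196872), the delta-5 desaturase of the same route, read 8.99, 10.4 and 7.08 FPKM. Fads3 (chr19:10041548-10059671), a family member that acts on sphingoid bases, read 3.66, 4.25 and 1.29 FPKM. Fads2 was 11.6 to 15.9 times Fads1 and the 3 genes did not overlap in any file. Fads3 had an unadjusted p of 0.0284 between files and an adjusted p of 0.871 by the chi-square test.

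Among the 7 elongases, 4 were above 1 FPKM in every file and 3 were below it in every file. Elovl1, which elongates saturated and monounsaturated very long chains, read 34.5, 40.7 and 32.7 FPKM. Elovl7, which acts on saturated chains, read 32.6, 30.2 and 29.6 FPKM, and Elovl5, the elongase of polyunsaturated fatty acids, read 28.8, 30.4 and 30.7 FPKM. These highest 3 were close, and Elovl7 and Elovl5 overlapped both in their files and in their counting intervals. Elovl6, which lengthens palmitate to stearate, the substrate of the Scd enzymes, was lower at 7.11, 6.94 and 7.23 FPKM. The remaining elongases were Elovl2 at 0.507 FPKM, which acts late in the polyunsaturated route, Elovl4 at 0.213 FPKM, known for ultra-long chains of retina and skin, and Elovl3 at 0.0514 FPKM, known from brown fat and skin glands. Elovl3 rests on 1 fragment in all, and these low members were not told apart from their neighbours.

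**Figure D2:**
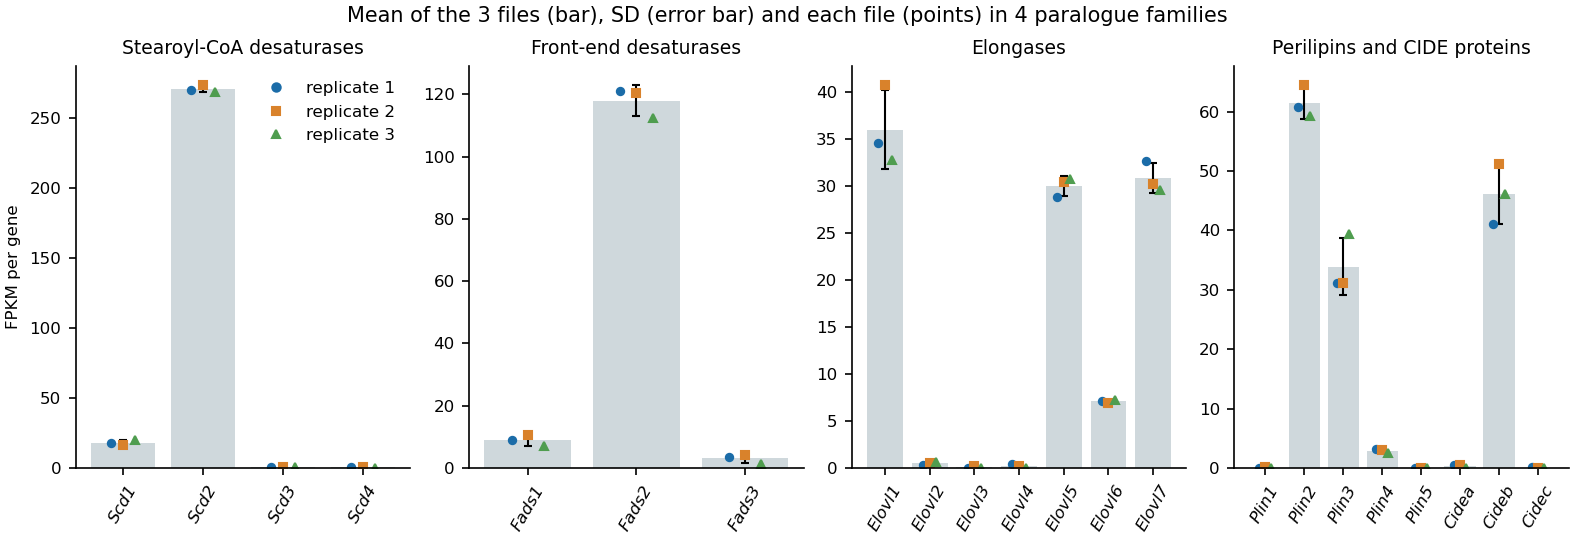
Bars give the mean FPKM of 4 paralogue families, error bars the SD of the 3 files and points each file, on linear axes that start at 0. Scd2 at 271 and Fads2 at 118 FPKM stand far above their paralogues, while Elovl1, Elovl7 and Elovl5 stand between 29.97 and 36.0 FPKM.

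Long-chain acyl-CoA synthetases trap fatty acids as CoA esters, and 4 of the 5 were present. Acsl3, an enzyme of the endoplasmic reticulum and of growing lipid droplets, read 64.2, 60.7 and 67.8 FPKM. Acsl5, the main form of intestinal epithelium, read 37.7, 36.0 and 38.8 FPKM. Both lay far above the others, and Acsl3 was 1.68 to 1.75 times Acsl5 in the 3 files. Acsl1, the main form of adipose tissue, heart and liver, read 9.07, 9.13 and 8.61 FPKM. Acsl4, which prefers arachidonic acid, read 7.35, 6.92 and 7.001 FPKM. The counting intervals of Acsl1 and Acsl4 did not overlap, so the order of all 5 members could be read. Acsl6, known from brain, was lowest at 0.331, 0.772 and 0 FPKM.

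Glyceride synthesis begins with glycerol-3-phosphate acyltransferases. Gpam, the mitochondrial form, read 4.62, 5.62 and 5.05 FPKM, and Gpat2, known from testis, read 0, 0 and 0.326 FPKM. The next step, from lysophosphatidic to phosphatidic acid, had its highest level in Agpat1 at 69.5, 76.8 and 60.6 FPKM. Agpat2, the form whose loss causes lipodystrophy, read 30.9, 28.7 and 26.2 FPKM, and Agpat3 read 9.77, 10.2 and 8.84 FPKM. Agpat1 was 2.25 to 2.68 times Agpat2, and the 3 genes kept one order in every file.

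The lipins dephosphorylate phosphatidic acid to diacylglycerol. Lpin3 was the highest of the 3 at 5.89, 6.79 and 5.47 FPKM, ahead of Lpin2 at 3.23, 3.05 and 3.23 FPKM and of Lpin1, the form of fat and muscle, at 2.24, 2.48 and 1.97 FPKM. Lpin3 was 2.63 to 2.78 times Lpin1, while Lpin2 and Lpin1 had overlapping counting intervals although their files did not overlap. For the last step to triglyceride, Dgat1 read 11.6, 10.1 and 9.60 FPKM and Dgat2 read 7.98, 6.46 and 8.09 FPKM. Both acyltransferases were thus present at like levels, with Dgat1 1.19 to 1.57 times Dgat2.

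The monoacylglycerol route, by which enterocytes rebuild triglyceride from the products of fat digestion, was at or near 0. Mogat2, the intestinal monoacylglycerol acyltransferase, read 0.493, 0.329 and 0 FPKM, about 5 fragments over the 3 files. Mogat1 was listed at 0 in every file, which with 3 fragments as the limit allows up to 0.327 FPKM. Mttp, the microsomal transfer protein that loads lipid onto apolipoprotein B, read 0.839, 1.11 and 1.27 FPKM, about 36 fragments.

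All 7 fatty acid binding protein genes and Cd36, a fatty acid receptor of the cell surface, were above 1 FPKM in every file. Fabp6 (chr11:43596040-43601562), which encodes the ileal bile acid binding protein, read 98.3, 88.9 and 99.6 FPKM, with a counting interval of 83.8 to 106. Fabp2 (chr3:122895072-122899506), the intestinal form, read 48.5, 40.6 and 36.1 FPKM, with an interval of 38.6 to 48.5. Fabp1 (chr6:71199888-71205023), the liver form that small intestinal enterocytes share, read 26.5, 33.2 and 26.9 FPKM, with an interval of 23.5 to 36.4. The 3 forms named for gut and liver were thus the 3 highest means of the family, and Fabp6 was 2.03 to 2.76 times Fabp2.

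Fabp4 (chr3:10204343-10208576), the form of adipocytes, macrophages and capillary endothelium, read 19.4, 22.2 and 33.6 FPKM, with an interval of 18.3 to 27.6. Its replicate 3 was the highest, but the unadjusted p between files was 0.136 and the adjusted p by the chi-square test was 0.997. Fabp4 overlapped Fabp1, so these neighbours were not told apart. Fabp5 (chr3:10012585-10016610), the epidermal form, read 9.71, 8.38 and 11.2 FPKM and was below Fabp4 in each file. Of the 50-base words of Fabp5, 21.1% occur in any of 5 other genes, most of them in the processed pseudogene Gm6166 (19.6%), so its level is uncertain. Fabp7, the brain form found in glia, read 2.65, 1.33 and 1.34 FPKM, about 10 fragments, and Fabp3, the heart and muscle form, read 1.11, 1.67 and 1.69 FPKM, about 6 fragments. These last members overlapped, and 37.3% of the words of Fabp3 occur in any of 3 other genes, most of them in the pseudogene Fabp3-ps1 (29.2%). Cd36 read 6.78, 6.62 and 6.21 FPKM.

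Fabp transcripts are short, and the recovered fragments show that the deposited FPKM divide by a length shortened by about 164 to 166 bases, which raises short genes most. With the full length in its place, an alternative chosen after the data were seen, Fabp6 came to 63.9, Fabp2 to 36.0, Fabp1 to 19.6 and Fabp4 to 16.8 FPKM. The order of these 4 was the same.

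**Figure D3:**
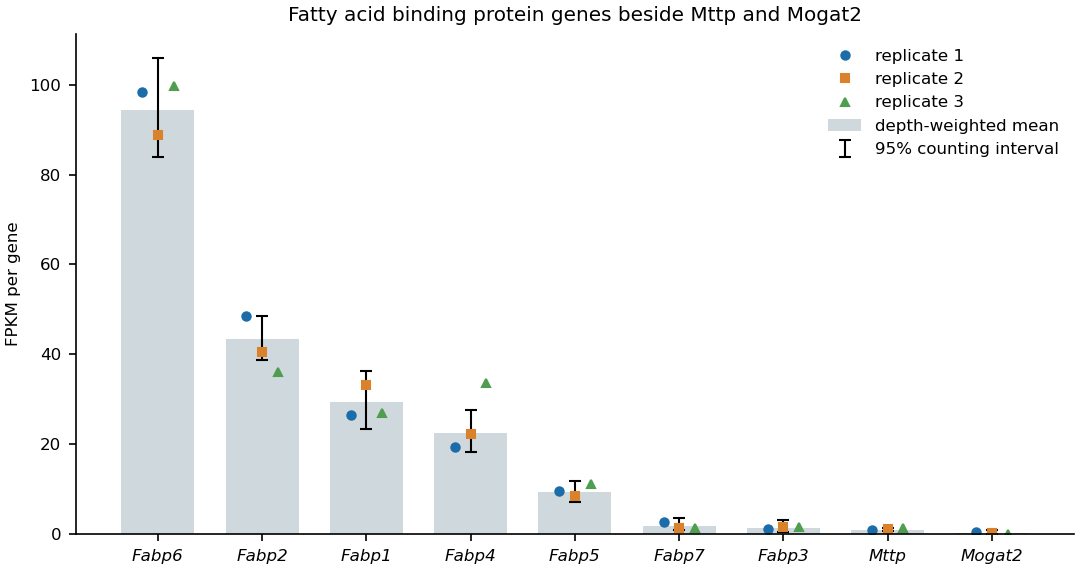
FPKM of the 7 Fabp genes, with Mttp and Mogat2 beside them, on a linear axis from 0. Bars give the mean of the 3 files weighted by depth, error bars the 95% counting interval and points each file. Fabp6 is highest at a weighted mean of 94.4 FPKM, and Fabp1 and Fabp4 overlap. Mttp and Mogat2 stand near 0, at weighted means of 1.02 and 0.353 FPKM.

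The starts of the 3 highest Fabp genes are shown because they are the members of the family known from gut and liver. Each sequence is the 250 bases before the start in RefSeq (GRCm38.p6), read 5′ to 3′ on the gene's strand. It runs over chr11:43601563-43601812 (- strand) for Fabp6, chr3:122894822-122895071 (+ strand) for Fabp2 and chr6:71199629-71199878 (+ strand) for Fabp1. Capitals mark matches to the motifs TATAAA, TCACNCCAC (a sterol response element), AGGTNA followed after 1 base by its reverse complement TNACCT (an inverted repeat of the kind the bile acid receptor FXR binds) and CAAAGTNCA (a core of HNF4 sites), on either strand.
Fabp6: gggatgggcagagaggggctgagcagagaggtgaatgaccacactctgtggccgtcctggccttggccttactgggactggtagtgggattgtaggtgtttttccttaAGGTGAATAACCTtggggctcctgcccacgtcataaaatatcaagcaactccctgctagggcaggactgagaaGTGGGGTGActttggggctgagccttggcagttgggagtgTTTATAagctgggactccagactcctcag
Fabp2: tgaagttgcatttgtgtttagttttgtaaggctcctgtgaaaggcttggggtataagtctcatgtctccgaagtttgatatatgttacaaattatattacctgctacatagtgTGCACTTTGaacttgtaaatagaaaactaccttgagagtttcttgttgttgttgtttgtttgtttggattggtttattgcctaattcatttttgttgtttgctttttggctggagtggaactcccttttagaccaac
Fabp1: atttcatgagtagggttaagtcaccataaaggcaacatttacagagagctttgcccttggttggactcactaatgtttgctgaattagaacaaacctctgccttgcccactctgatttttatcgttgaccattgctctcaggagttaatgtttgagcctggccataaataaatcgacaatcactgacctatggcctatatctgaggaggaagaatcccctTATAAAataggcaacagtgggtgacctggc

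In Fabp6 the inverted repeat AGGTGAATAACCT begins 142 bases before the start and GTGGGGTGA 69 bases before it. The letters TTTATA, which read TATAAA on the opposite strand, begin 29 bases before the start. Fabp2 holds TGCACTTTG 137 bases before the start, and Fabp1 holds a TATA box 30 bases before it. Among 32851 RefSeq promoters of this length, 6 (0.0183%) held the inverted repeat, 1.05% the sterol response element, 1.19% the HNF4 core and 12.4% TATAAA, each on either strand. Promoters were found for 46 of the 57 genes. Those of Cidea, Dgat1, Dgat2, Elovl3, Fabp4, Fabp5, Fads1, Lpl, Mogat2, Scd1 and Scd2 were missing and were not searched. Of those 46, only Fabp6 held the inverted repeat, only Fabp2 the HNF4 core, and Fabp6 and Acsl1 the sterol response element. Acacb, Cideb, Fabp1 and Fabp6 held TATAAA on either strand. The fifth motif searched, CCAAT, was in 33.8% of all promoters and in 23 of the 61 promoters of the 46 genes. Some genes have several promoters, and 21 of the 46 genes held CCAAT in at least 1. A match describes letters only.

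Set side by side, the genes known mainly from small intestinal fat and bile acid handling were split. Fabp6, Fabp2 and Fabp1 lay between 28.8 and 95.6 FPKM, whereas Mttp and Mogat2 were at 1.07 and 0.274 FPKM. Of 10 small intestinal enterocyte markers, 3 (30%) reached 1 FPKM in every file, against 48.5% of all gene symbols. These were Apoa1 at 40.3, Apoc3 at 9.51 and Apoa4 at 3.07 FPKM. The sum of all 10 was 46.2 to 62.0 FPKM. Of the others, Gata4 was listed at 0, Slc2a2 was at 0.0366, Lct at 0.0440, Fgf15 at 0.0536, Alpi at 0.285 and Slc10a2 at 0.601 FPKM. Sis read 1.16, 1.02 and 0.562 FPKM in replicates 1, 2 and 3. Markers of hepatocytes, which also make Fabp1, Apoa1 and Apoc3, were all present, with 5 of 5 above 1 FPKM, a sum of 261 to 284 FPKM and Alb at 129 FPKM. The part of hepatocyte or other RNA in the levels of Fabp1 and the apolipoprotein genes was not tested. In whole tissue, fewer cells of a type and less RNA per cell cannot be told apart.

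The genes known mainly from adipose tissue were split as well. Fabp4 was at 25.1 FPKM, Lpl at 5.37, Lipe at 3.64 and Plin4 at 2.91 FPKM, but Plin1, Cidea and Cidec stayed under 1 FPKM in every file. The median of these 7 adipose genes was 2.91 FPKM. That of the 5 small intestinal genes was 28.8 FPKM, and that of 8 paralogues classed as broadly expressed was 22.2 FPKM. These sets were drawn up after the values were seen and are a description. The 8 paralogues include Cideb, the form of liver and intestine, and Fabp5, the epidermal form, both of uncertain level. The median of the 8 thus depends on which genes are classed as broad. Of 8 adipocyte markers, 3 (37.5%) reached 1 FPKM in every file, against 48.5% of all gene symbols. The sum of all 8 was 31.2 to 35.8 FPKM. Lep and Ucp1 were listed at 0, Adipoq was at 0.416, Retn at 0.633 and Cfd at 1.74 FPKM, and most of the sum came from Pparg at 18.2 and Cebpa at 11.2 FPKM, which colonic epithelium also expresses. Among other cells that make Fabp4, all 5 macrophage markers (sum 170 to 180 FPKM) and all 5 endothelial markers (sum 31.9 to 35.8 FPKM) were above 1 FPKM. Most of the macrophage sum came from Lyz2 at 125 FPKM. The medians of the macrophage and endothelial markers were 7.54 and 3.31 FPKM. The part of these cells in the level of Fabp4 was not tested.

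**Figure D4:**
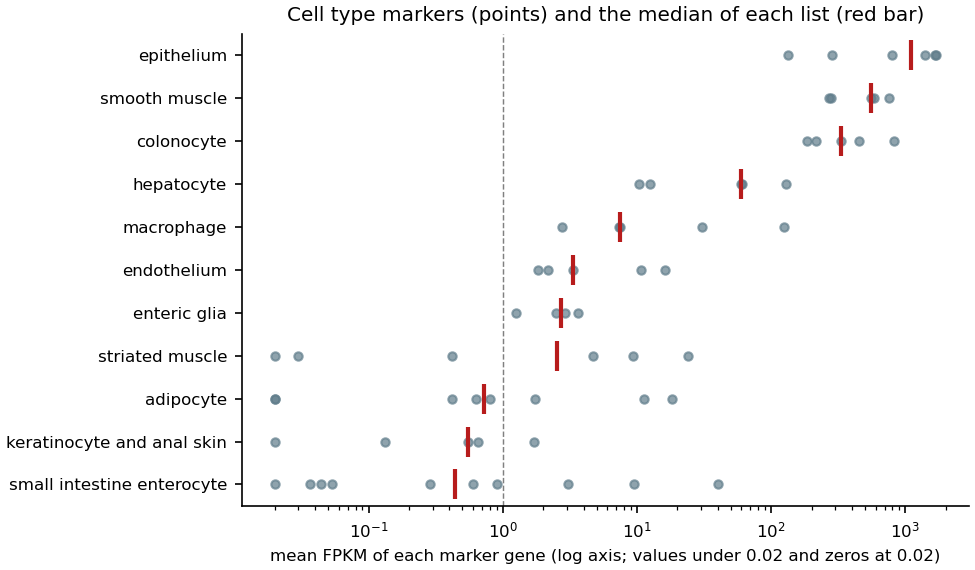
Mean FPKM (log axis) of each marker gene (points) of 11 cell types, with the median of each list as a red bar and a dashed line at 1 FPKM. Epithelial, smooth muscle and colonocyte lists have medians of 1097, 554 and 334 FPKM, while the adipocyte and small intestine enterocyte lists have medians of 0.720 and 0.443 FPKM.

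Lipid droplet coats showed the ubiquitous paralogues high and the adipocyte ones low. Plin2 (chr4:86656565-86670059), the perilipin of most non-adipose cells, read 60.7, 64.4 and 59.2 FPKM. Plin3, which moves between cytosol and droplets, read 31.1, 31.1 and 39.5 FPKM. Plin4, of adipocytes and muscle, read 3.15, 3.01 and 2.59 FPKM. Plin2 was 1.5004 to 2.07 times Plin3 and 19.3 to 22.9 times Plin4. Plin1, the perilipin that gates lipolysis in adipocytes, read 0, 0.156 and 0 FPKM, a single fragment in replicate 2. Plin5, of oxidative muscle and liver, was listed at 0 in every file, a limit of 0.192 FPKM. These were the lowest perilipins, and they could not be told apart.

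Of the CIDE proteins, which promote droplet fusion and lipoprotein lipidation, only Cideb reached 1 FPKM. Cideb, the form of liver and intestine, read 41.1, 51.1 and 46.2 FPKM. Cidea, of brown fat, read 0.528, 0.529 and 0 FPKM, and Cidec, of white fat, read 0.172, 0 and 0 FPKM. The level of Cideb is uncertain, because 62.0% of its 50-base words lie on the strand opposite Nop9 transcripts. The sources used here do not say whether the counting used strand, so reads of the overlapping genes cannot be told apart.

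All 3 enzymes of the intracellular lipolytic chain were above 1 FPKM in every file. Pnpla2, the adipose triglyceride lipase that takes off the first fatty acid, read 37.3, 34.2 and 33.6 FPKM. Mgll, the monoacylglycerol lipase that completes the chain, read 9.34, 10.8 and 10.1 FPKM. Lipe, the hormone-sensitive lipase that stands between them, read 2.82, 5.34 and 2.76 FPKM. Pnpla2 was 3.18 to 3.9997 times Mgll and 6.40 to 13.2 times Lipe, so the middle enzyme was the lowest of the chain. Lipe shares 10.2% of its 50-base words with an antisense transcript, 4732471J01Rik. Of the extracellular lipases, Lpl, which frees fatty acids from lipoproteins at the capillary wall, read 5.22, 5.30 and 5.60 FPKM and overlapped Lipe, while Lipc, the hepatic lipase, read 0.753, 0.151 and 0.458 FPKM.

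Regulators of these genes were nearly all present, as 15 of 16 reached 1 FPKM in each file and the median was 16.0 FPKM. Of all gene symbols, 48.5% reached that level, a share to be set beside this count and those of the lists below. Mlx, the partner of the carbohydrate response factors, had 59.3 ± 3.05, Insig1, which holds SREBP in the endoplasmic reticulum, 59.2 ± 3.61, Ppard, a fatty acid receptor, 40.1 ± 1.64 and Srebf2, which drives sterol synthesis, 33.7 ± 0.746 FPKM. Supply of citrate, NADPH and acetyl-CoA was represented by 8 of 9 genes at or above 1 FPKM in each file, and the median was 19.4 FPKM. Pgd and Idh1, which yield NADPH, had 67.6 ± 2.52 and 56.0 ± 5.65 FPKM, Acss2, which makes acetyl-CoA from acetate, 39.4 ± 3.16 and Slc25a1, the mitochondrial citrate carrier, 29.99 ± 2.45 FPKM. Acss2 was thus below Acly, the citrate-dependent source of acetyl-CoA, at 82.3 FPKM.

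Among further activation and transport genes, 7 of 13 (53.8%) reached 1 FPKM in every file, near the 48.5% of all gene symbols. Dbi, the acyl-CoA binding protein, had 266 ± 9.14 FPKM, close to the level of Scd2. Acsm3, a medium-chain acyl-CoA synthetase, had 54.2 ± 2.099, Acbd3 27.4 ± 1.11 and Acss1, the mitochondrial acetyl-CoA synthetase, 18.8 ± 1.32 FPKM, while Acsbg2 was listed at 0 and Slc27a5, a liver bile acid-CoA ligase, had 0.203 FPKM. Of 10 other glyceride enzymes, 9 reached 1 FPKM in every file, led by Mboat1, a lysophospholipid acyltransferase, at 115 ± 1.73 FPKM. Chpt1 and Cept1, which turn diacylglycerol into phospholipid, had 57.7 ± 6.84 and 37.5 ± 2.92, and Agpat4 30.2 ± 2.54 FPKM. Mboat1 and Chpt1 were thus well above the triglyceride-forming Dgat1 and Dgat2, at 10.45 and 7.51 FPKM.

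Of 14 genes of chylomicron assembly and lipid absorption, 11 reached 1 FPKM in every file and the median was 8.04 FPKM. Sar1b, which buds chylomicron carriers, had 42.9 ± 4.89, Apoa1 40.3 ± 5.32, Apobec1, the editing enzyme of Apob mRNA, 21.4 ± 2.39 and Apoc2 11.4 ± 4.31 FPKM. Npc1l1, the cholesterol uptake protein of the small intestine, had 0.341 FPKM and Pnlip, the pancreatic lipase, was listed at 0. Of 16 droplet and lipase partners, 12 reached 1 FPKM in every file, led by Hsd17b11, a droplet protein, at 85.3 ± 1.72, Bscl2, the droplet-forming seipin, at 27.8 ± 1.27, Ldah at 22.2 ± 3.25 and Lipa, the lysosomal lipase, at 15.002 ± 1.37 FPKM. Fitm1 was listed at 0 and Angptl4, an inhibitor of Lpl, had 0.203 FPKM.

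For 15 of the genes the tables list more than 1 isoform and the mean was at least 1 FPKM. The same isoform led in all 3 files in 12 of them, and in 6 (Acsl1, Lpin1, Lpin2, Lpin3, Fabp5 and Lipe) it held at least 90% in every file. The median share of the main isoform was 93.6%. Acly was split, its isoform of 4427 bases holding 61.7%, 66.9% and 71.2% of the level in replicates 1, 2 and 3. In Acsl3 the isoform of 3810 bases held 48.1%, 67.2% and 66.2%, and in Agpat1 that of 1942 bases held 89.7%, 74.4% and 78.3%. The leading isoform changed between files in Mttp, Acsl4 and Cd36. In Mttp the isoform of 4272 bases held 95.9%, 74.8% and 0.0246%, although the summed level stayed between 0.839 and 1.27 FPKM. Acsl4 gave 36.2%, 91.6% and 29.8% for its isoform of 4990 bases. The shares in these 3 genes are given as values, with no test.

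**Figure D5:**
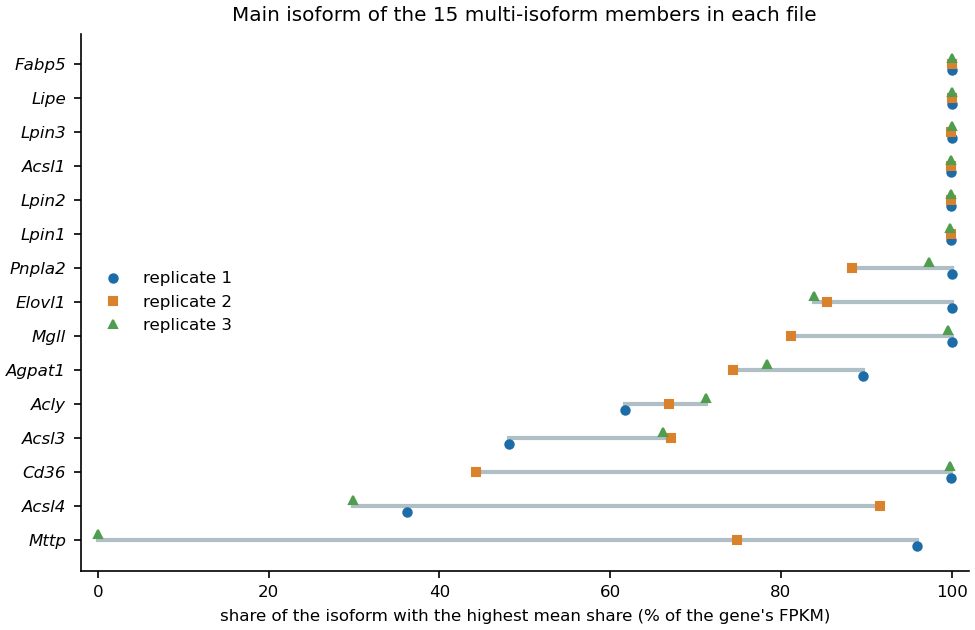
Share of the gene's FPKM (%) held by the isoform with the highest mean share, in each file (points), for the 15 genes with several isoforms. Points lie together near 100% for the lipins, Acsl1, Fabp5 and Lipe, and spread widely for Mttp, Acsl4 and Cd36.

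By position, 10 of the 57 genes (17.5%) lie on chromosome 19, which holds 3.24% of all symbols: Scd1, Scd2, Scd3 and Scd4, Fads1, Fads2 and Fads3, Elovl3, Gpam and Acsl5. The Scd cluster spans levels from 0.408 to 271 FPKM and the Fads cluster from 3.07 to 118 FPKM, so neighbours differed widely within each. Fabp4 and Fabp5 are likewise near each other on chromosome 3. Of 27 single-isoform genes of the set that entered the test between files, 0 were called by the chi-square test, against 0.0798% of all genes tested, and 2 (Acaca and Fads3) had an unadjusted p under 0.05. With genes of several isoforms added, Lipe had the lowest p of the set by the chi-square test, 0.0149 unadjusted and 0.903 adjusted.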

How the data were processed

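The authors deposited 1 isoform table per labelled replicate, with FPKM and its 95% bounds, per the file headers; each isoform's read coverage, a signal the authors also gave, was not used. TopHat2 2.1.1, Bowtie2 2.3.4.3, Cufflinks 2.2.1 and GRCm39 are named in the submitters' processing notes. The files' positions fit GRCm38 instead, with 97.9% of 23026 symbols within 1000 bases of RefSeq on GRCm38.p6, and are printed so. The sources used here give no settings, strandedness or treatment of multiply matching reads.

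The members, lists and tests were chosen with earlier results of these data known. Isoforms were joined by identifier and FPKM summed per symbol, and the levels given were not rescaled. Every member is named, and of each pathway list the 4 highest genes and up to 2 under 1 FPKM. The same rule was set for the marker lists, which are instead given by counts and sums, with markers named after their values were seen. Gpat3 and Gpat4 were likewise named after their values were seen. Fragments were recovered from the upper bounds: 63.3%, 63.3% and 63.4% of low values in genes over 800 bases lay within 0.01 of a whole fragment. For the chi-square test alone, each file was divided by its median ratio to the mean of the files. The sampling variance was the FPKM worth of 1 fragment, taken from the bounds, times the weighted mean of the files. For the counting intervals, FPKM was multiplied by a fitted number of fragments per FPKM and treated as a count. The fragment numbers given for single genes come from that fit and are approximate. The limit for a gene at 0 is 3 fragments over all files. The chi-square test compared the 3 files in single-isoform genes with a mean of at least 1 FPKM. On simulated data with no change it made 1 call among 8771 genes, and it recovered 37% of 100 genes changed 1.5-fold and 69% of 100 genes changed 2-fold in replicate 1.

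Shared sequence was counted in 50-base words of GENCODE M21 transcripts, on either strand. Promoters came from RefSeq; protein sequences were not used here. Python 3.11.15, pandas 2.3.3, NumPy 2.4.6, SciPy 1.17.1 and Biopython 1.88 were used. Alternatives changed the threshold, unit, isoform rule, pseudocount, filter, weighting and length, and left out each file.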

Additional observations from a re-analysis of the deposited data

How the results depend on the processing

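The number of genes at or above 1 FPKM in every file (41) was 43 at a threshold of 0.5 FPKM, 37 at 2 FPKM, 43 in TPM and 41 or 42 without each replicate. The median level (7.09 FPKM) was 10.3 over genes that reached 1 FPKM, 16.6 in TPM, 6.05 with only the highest isoform counted and 7.51 over genes sharing under 5% of their 50-base words, a setting chosen after the data were seen; without each replicate it was 6.96 to 7.17. The sum (1297 FPKM) was 3035 in TPM, 1220.4 with the highest isoform and 1290.0 to 1306 without each replicate. TPM rescales each file to a fixed total, which multiplies all its levels by 1 factor. Of the single genes, the highest isoform moved 5 of 57 by more than their SD, 3 of them by over 1.5 times: Acly to 54.8, Acsl3 to 38.8 and Acsl4 to 3.98 FPKM. The full length, also chosen after the data were seen, moved 14 of 38 with 1 isoform. Leaving out a replicate moved 7 genes by over 1.5 times, all with means under 1 FPKM: Elovl4 to 0.0914, Mogat2 to 0.164 and Cidec to 0 FPKM without replicate 1, Acsl6 to 0.165 and Elovl3 and Plin1 to 0 FPKM without replicate 2, and Gpat2 to 0 FPKM without replicate 3. Weighting by depth moved Gpat2 to 0.0460 FPKM. The 7 genes that differed between files became 15 with genes of several isoforms added, 8 at a minimum of 5 FPKM, 8 with no minimum, 4 without replicate 1 or without replicate 2 and 6 without replicate 3, and none of the 57 was among them. The median share of the main isoform (93.6%) was 90.4 to 99.8% without each replicate.

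No paired analysis was possible because the labels give 1 group. With 8.81e+06 fragments in all, genes near 0 rest on few fragments, and their order cannot be read. The files were counted as 1 sample and the labels name no animals, so the spread between animals was not measured. Levels of Acaca, Cideb, Fabp3, Fabp5, Lipe, Mogat1, Scd3 and Scd4 are uncertain, since at least 5% of their 50-base words occur in other genes. Scd1 lies under that share, but the part of Scd2 reads in its level was not tested.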

Other observations

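Genes of ileal bile acid handling, the setting from which Fabp6 is known, were split in this colon. Nr1h4, which encodes the bile acid receptor FXR, read 17.1, 18.6 and 16.8 FPKM in replicates 1, 2 and 3. Slc51b, a subunit of the basolateral bile acid exporter, read 15.5, 9.004 and 9.90 FPKM, and its partner Slc51a read 1.92, 2.68 and 1.16 FPKM. These 3 of the 6 genes (50%) reached 1 FPKM in every file, near the 48.5% of all gene symbols. Slc10a2, the apical ileal bile acid importer, read 1.26, 0.541 and 0 FPKM. Nr0b2 and Fgf15, known as targets of FXR in ileum, had means of 0.185 and 0.0536 FPKM, and Fgf15 rests on reads in replicate 2 alone. Fabp6, at 95.6 FPKM, was thus far above each of them in every file.

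Markers of further cell types were also measured. All 5 smooth muscle markers were above 100 FPKM. Of 6 striated muscle markers, 3 (50%) reached 1 FPKM in every file, near the 48.5% of all gene symbols. The sum of the 6 was 34.8 to 43.5 FPKM, mostly from Tnnt2 at 24.1 and Ckm at 9.40 FPKM. Myh7 was at 0.0299 FPKM and Mb was listed at 0. Of 4 enteric glia markers, 3 (75%) reached 1 FPKM in every file (sum 9.64 to 11.3 FPKM). So did 1 of 5 keratinocyte and anal skin markers (20%), with Krt1 listed at 0.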
